A study of Homo sapiens with 16 samples.

Results

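The response of DU145 cells to I-BET762 in the presence of lactate was described here from 8 polyA RNA-seq libraries out of the 16 of the study. The members were the 4 libraries of cells given lactate together with I-BET762 (Lactate_iBET) and the 4 libraries of cells given lactate alone (Lactate), so that every library carried lactate and only I-BET762 differed. The other 8 libraries, 4 of cells given I-BET762 alone (iBET) and 4 of untreated control cells (Ctrl), were used only to set the response beside the one without lactate. DU145 is an established human prostate carcinoma line. The labels give neither dose nor duration for either agent. In the Lactate_iBET samples the cell-line field runs through line numbers other than DU145, whereas the titles and source field read DU145, and the titles were followed.

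I-BET762 is an inhibitor of the bromodomain and extra-terminal (BET) proteins, which bind acetylated lysines on histones and bring the elongation kinase P-TEFb to promoters and enhancers. Cells hold part of their P-TEFb inactive on the 7SK RNA through the protein HEXIM1, and HEXIM1 mRNA and several histone mRNAs are known to rise in many cell types when BET proteins are blocked. Lactate, the end product of glycolysis, can be taken up by tumour cells through monocarboxylate carriers and burned or built into lipid.

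Total counts ran from 14358751 to 14641934 in the Lactate_iBET libraries and from 10711859 to 17173584 in the Lactate libraries. The lowest total belonged to Lactate replicate 1, which also stood apart in its expression: its mean over 32 cytosolic ribosomal protein genes was 10.31 in log2 CPM (counts scaled to a common library total), against 9.06 to 9.58 in the other 7 libraries, and its quality weight (a relative precision estimated from all genes) was 0.116, against 0.511 to 2.47. The counts of called genes, and the genes that were called, are therefore given with all 8 libraries and with the 7 that remain without it. The cells carried the epithelial keratin mRNA KRT8 at 866 to 1430 CPM and the leukocyte marker PTPRC did not exceed 1 read in any of the 8 libraries. The summed level of 10 leukocyte markers was 2.89 to 3.46 CPM in Lactate_iBET and 3.50 to 5.21 CPM in Lactate. Nothing in the labels says whether the replicates were separate cultures beyond calling them independent, so the p-values measure the spread between these libraries.

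With I-BET762 in lactate-treated cells, a small set of mRNAs passed the test, most of them lower, and their number depended on the libraries and the test. Over all genes tested, 47% had negative fold changes in 7 libraries and 52.7% in 8. HEXIM1, 4 histone H2B genes, 2 H2B pseudogenes and the kinase gene NEK8 rose, by log2 0.67 to 1.31. CEMIP, FGFBP1, ECM1 and ADGRG1, whose proteins are secreted or lie at the cell surface, the adaptor gene LAT2, the oxidase genes XDH and AOX1 and the interferon-induced IFI44 fell, with log2 fold changes from −1.33 to −2.06. These calls come from the 7 libraries without Lactate replicate 1, where edgeR's quasi-likelihood test called 40 of 14396 genes (8 higher and 32 lower, 0.278% of those tested) at an adjusted p under 0.05. With all 8 libraries the same test called 2 of 14195 genes (0.0141%), MYBPH and LAT2, both lower. At an unadjusted p under 0.05 the counts were 1356 genes with 8 libraries and 1586 with 7, or 9.55% and 11% of those tested. The biological coefficient of variation was 0.218 with 8 libraries and 0.142 with 7. When the replicate number was added as a block, 0 genes were called with 8 libraries and 24 with 7, and 19 of the 40 genes kept their call while 21 lost it.

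**Figure D1:**
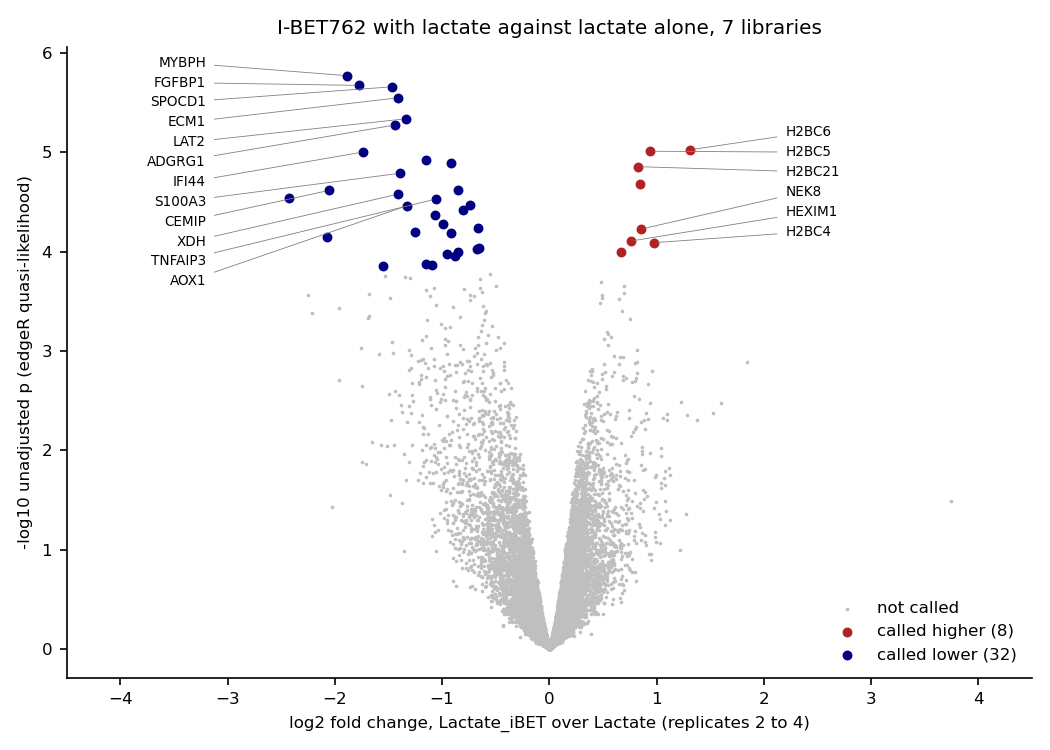
Each point is a gene of the 7-library comparison, with the log2 fold change of Lactate_iBET over Lactate (replicates 2 to 4) on the x axis and −log10 of the unadjusted p on the y axis. The 8 genes called higher (red) lie between 0.67 and 1.31, and the 32 called lower (blue) reach −2.43.

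The upstream sequences of the H2B genes and of HEXIM1 are shown because these genes moved together, and those of TNFAIP3 and ECM1 because each holds a match to a motif of a well-known stress-responsive factor. The 5 motifs searched, on both strands, were the H2B octamer ATTTGCAT (ATGCAAAT on the other strand), the TATA box TATAAA, the CCAAT box, the AP-1 motif TGANTCA and 9 letters of the NF-kB motif, GGGANTTTC, none of which contains another. Windows ran from 250 bases before to 50 bases after the RefSeq start (GRCh38.p14), and 27 of the 40 called genes had one in the table. The stretches below are excerpts of these windows, 5′ to 3′ on the gene's strand, with the matches they were chosen for in capitals, and other matches lie outside them, such as TATAAA in H2BC4 and H2BC6 and CCAAT in HEXIM1.
H2BC21 (chr1:149886692-149886909, minus strand): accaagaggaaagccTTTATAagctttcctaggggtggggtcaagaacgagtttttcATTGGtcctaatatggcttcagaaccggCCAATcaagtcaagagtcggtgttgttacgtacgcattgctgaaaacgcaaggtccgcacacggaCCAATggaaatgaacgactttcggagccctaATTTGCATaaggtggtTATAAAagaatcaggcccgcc
H2BC4 (chr6:26123985-26124123, minus strand): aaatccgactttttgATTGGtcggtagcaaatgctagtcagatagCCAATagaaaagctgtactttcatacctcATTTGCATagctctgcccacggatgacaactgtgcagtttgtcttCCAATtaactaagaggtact
H2BC6 (chr6:26183609-26183675, plus strand): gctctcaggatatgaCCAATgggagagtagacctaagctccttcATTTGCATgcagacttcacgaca
H2BC5 (chr6:26157901-26158113, plus strand): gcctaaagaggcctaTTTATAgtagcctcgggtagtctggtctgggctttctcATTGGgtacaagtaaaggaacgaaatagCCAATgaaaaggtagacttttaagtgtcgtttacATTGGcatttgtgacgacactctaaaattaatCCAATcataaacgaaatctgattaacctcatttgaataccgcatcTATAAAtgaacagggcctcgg
HEXIM1 (chr17:45148406-45148466, plus strand): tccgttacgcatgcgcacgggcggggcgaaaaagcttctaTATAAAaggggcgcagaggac
TNFAIP3 (chr6:137867163-137867216, plus strand): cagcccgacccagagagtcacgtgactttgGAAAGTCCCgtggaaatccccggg
ECM1 (chr1:150508011-150508099, plus strand): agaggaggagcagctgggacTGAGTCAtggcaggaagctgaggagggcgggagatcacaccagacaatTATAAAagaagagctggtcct

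The octamer was found in 7 of the 9 H2B genes tested, H2BC4, H2BC6 and H2BC21 among them, and in 1.8% of all 27305 promoters. H2BC5 held CCAAT and TATAAA matches and no octamer in this window. TATAAA occurred in 5 of the 6 windows of genes that rose, in 5 of the 21 windows of genes that fell, and in 12% of all promoters. Those of genes that rose were HEXIM1 and the H2B genes H2BC4, H2BC5, H2BC6 and H2BC21. TATAAA was found in 7 of the 9 H2B genes tested, called or not, so this count largely describes 1 gene family. TGANTCA occurred in 3 of those 21 windows (ECM1, S100A3 and PLEKHG4) and in 7.76% of all promoters. The NF-kB letters were found in TNFAIP3 alone among the called genes and in 1.3% of all promoters. A match is a description of the letters, and binding was not measured.

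HEXIM1 (chr17:45148502-45152101, plus strand, GENCODE 29), the inhibitor of P-TEFb, had 142, 157, 115 and 127 CPM in the Lactate_iBET libraries, against 69.6, 85.9, 81.0 and 72.1 CPM in the Lactate libraries, in replicate order. The lowest Lactate_iBET library lay above the highest Lactate library, so the groups did not overlap. Its log2 fold change was 0.76 ± 0.12 (SE) in 7 libraries, with an adjusted p of 0.0376, and 0.79 ± 0.13 in 8 libraries, with an adjusted p of 0.0949. With the replicate block the 7-library adjusted p was 0.0543. HEXIM1 was the only one of 20 tested genes of the P-TEFb and 7SK list to be called in 7 libraries, where 0.0556% of all genes tested were called higher. The list median was log2 0.10 with 7 libraries and 0.18 with 8. CDK9, the kinase subunit of P-TEFb, averaged 121 ± 9.1 CPM in Lactate_iBET and 113 ± 8.9 CPM in Lactate (SD, n = 4 each), and its log2 fold change was 0.05 ± 0.09 in 7 libraries (adjusted p = 0.899).

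The H2B genes encode a core histone of the nucleosome. H2BC6 had 10.9, 11.6, 9.84 and 10.6 CPM in Lactate_iBET and 3.35, 5.01, 4.41 and 3.42 CPM in Lactate, the largest rise among the 8 called genes (log2 1.31 ± 0.17, adjusted p = 0.0159 in 7 libraries). H2BC5 had 30.7, 36.8, 29.7 and 32.1 CPM in Lactate_iBET and 13.5, 16.6, 18 and 15.7 CPM in Lactate (log2 0.94 ± 0.12, adjusted p = 0.0159). H2BC21 had 47.6, 47.0, 56.3 and 55.9 CPM in Lactate_iBET and 23.4, 27.8, 29.8 and 29.6 CPM in Lactate (log2 0.83 ± 0.11, adjusted p = 0.0168). In none of these genes did the groups overlap, with or without Lactate replicate 1, and absence of overlap in 7 libraries was part of their selection. H2BC4 had 17.5, 17.9, 14.2 and 18.02 CPM in Lactate_iBET and 10.6, 9.82, 8.83 and 7.07 CPM in Lactate (log2 0.97 ± 0.16, adjusted p = 0.0378, and 0.0741 with the block). The pseudogenes H2BC19P and H2BC20P, which overlap on opposite strands of chromosome 1, changed by log2 0.84 and 0.67 in the 7 libraries (adjusted p = 0.0217 and 0.042, the second 0.0577 with the block). With all 8 libraries none of these 6 genes was called, and the log2 fold changes were 1.37 for H2BC6, 0.99 for H2BC5, 0.88 for H2BC21 and 0.88 for H2BC4 (adjusted p = 0.0548, 0.0574, 0.0627 and 0.152), and 1.01 for H2BC19P and 0.84 for H2BC20P (adjusted p = 0.211 and 0.267). H2B copies are nearly identical in their coding sequence, so reads may have been shared or split among them, and these values are uncertain gene by gene. Most histone mRNAs end in a stem-loop and not in a poly(A) tail, so polyA libraries hold only the polyadenylated part.

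Among 27 tested genes of the histone list, 4 rose and 0 fell in the 7-library fit, against 0.0556% of all genes tested called higher, and 0 were called in the 8-library fit. The list median was log2 0.44 with 7 libraries and 0.35 with 8, and the median of all genes was 0.01 and −0.02. The groups did not overlap and Lactate_iBET was higher for 8 of the 27 with all 8 libraries, against 3.9% of all genes. The broader list of genes reported to rise under BET inhibition, 18 of them tested, had 4 called higher (HEXIM1, H2BC4, H2BC5 and H2BC21) and a median of 0.40. These genes were listed with earlier results of the same libraries known, so the counts are no independent evidence of direction. SERPINI1, a serpin that also rises in many BET inhibitor studies, had 19.3, 19.6, 16.9 and 18.2 CPM in Lactate_iBET and 20.2, 12.5, 14.4 and 14.4 CPM in Lactate. Lactate replicate 1 was its highest library, and its log2 fold change of 0.42 ± 0.12 without that library did not pass the test (adjusted p = 0.215).

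NEK8, a kinase of the primary cilium, had 48.5, 55.02, 39.6 and 47.0 CPM in Lactate_iBET and 37.6, 23.4, 26.03 and 29.5 CPM in Lactate. The groups did not overlap, and Lactate replicate 1 lay nearest to the Lactate_iBET libraries. NEK8 changed by log2 0.85 ± 0.13 in 7 libraries (adjusted p = 0.033, and 0.0741 with the block), and 0.69 ± 0.17 in 8 (adjusted p = 0.255).

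**Figure D2:**
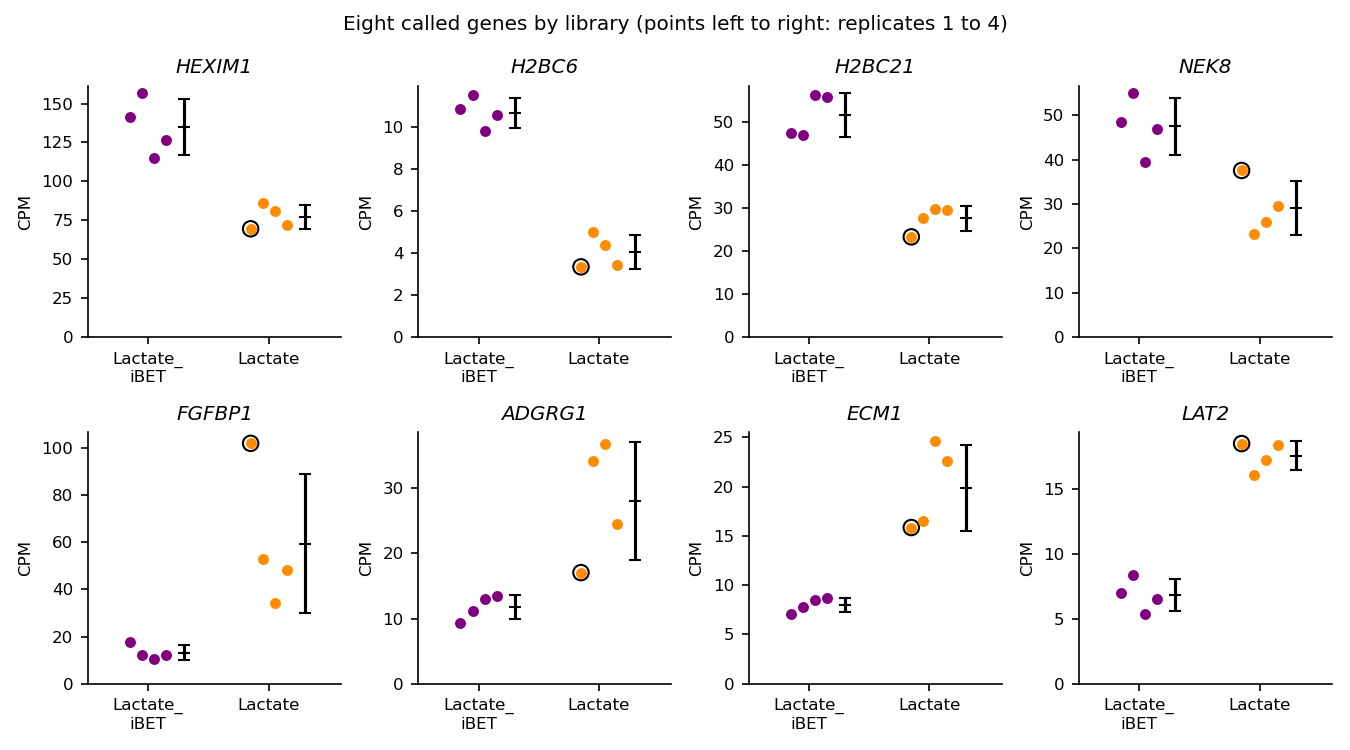
CPM of 8 called genes in each library, with the 4 Lactate_iBET libraries on the left and the 4 Lactate libraries on the right of each panel; the bar beside each group is the mean ± SD, and the circle marks Lactate replicate 1. HEXIM1 lies at 115 to 157 CPM in Lactate_iBET and at 69.6 to 85.9 CPM in Lactate. The groups overlap in none of the 8 panels, but the genes were chosen as called and without overlap in 7 libraries. Over all genes tested with 8 libraries, 3.9% lay higher and 3.74% lower without overlap.

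Of the genes that fell, MYBPH and LAT2 were called in both fits. LAT2 (chr7:74199652-74229834, plus strand), a membrane adaptor best known from immune-receptor signalling, had 7.01, 8.37, 5.37 and 6.49 CPM in Lactate_iBET, against 18.5, 16.1, 17.3 and 18.4 CPM in Lactate. The log2 fold change of LAT2 was −1.39 ± 0.16 with 8 libraries (adjusted p = 0.0437) and −1.34 ± 0.16 with 7 (adjusted p = 0.0128). MYBPH, a myosin-binding protein, had 1.03, 1.18, 1.10 and 1.02 CPM in Lactate_iBET, against 3.76, 3.98, 4.41 and 3.64 CPM in Lactate. Both genes were tightly grouped within each condition and far apart between conditions. MYBPH changed by log2 −1.88 ± 0.19 with 8 libraries (adjusted p = 0.0253) and −1.89 ± 0.20 with 7 (adjusted p = 0.0102). With the replicate block both had an adjusted p of 0.135 in 8 libraries.

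FGFBP1, CEMIP, ECM1 and ADGRG1, whose proteins act outside the cell or at its surface, were among the called falls with a mean of at least 5 CPM. PAPPA2 and NUPR1, below that mean, had the largest falls of the 32 genes. They changed by log2 −2.43 ± 0.35 and −2.07 ± 0.33 in 7 libraries (adjusted p = 0.0225 and 0.0353). With 8 libraries the values were −2.34 and −2.635, neither called (adjusted p = 0.0632 and 0.148). FGFBP1, a carrier that releases fibroblast growth factors from the matrix, had 17.7, 12.3, 10.7 and 12.2 CPM in Lactate_iBET, against 102, 52.96, 34.2 and 48.2 CPM in Lactate. The groups were far apart, and Lactate replicate 1 was the highest of its group at 102 CPM. FGFBP1 changed by log2 −1.77 ± 0.20 in 7 libraries (adjusted p = 0.0102) and −2.19 ± 0.32 in 8 (adjusted p = 0.0627). CEMIP, which takes part in breaking down hyaluronan, had 16.3, 17.7, 38.2 and 31.6 CPM in Lactate_iBET, against 30.4, 127, 123 and 72.5 CPM in Lactate. Lactate replicate 1 lay inside the Lactate_iBET range, while the other 3 Lactate libraries lay above it. The log2 fold change of CEMIP was −2.06 ± 0.29 in 7 libraries (adjusted p = 0.0219) and −1.79 ± 0.43 in 8 (adjusted p = 0.24).

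ECM1, a secreted matrix glycoprotein, had 7.08, 7.75, 8.53 and 8.67 CPM in Lactate_iBET, against 15.9, 16.6, 24.6 and 22.6 CPM in Lactate. ADGRG1, an adhesion G protein-coupled receptor, had 9.35, 11.2, 13.1 and 13.5 CPM in Lactate_iBET, against 17.1, 34.1, 36.8 and 24.5 CPM in Lactate. In neither gene did the groups overlap. Their log2 fold changes in 7 libraries were −1.41 ± 0.16 for ECM1 (adjusted p = 0.0102) and −1.44 ± 0.17 for ADGRG1 (adjusted p = 0.0128). S100A3, a small calcium- and zinc-binding protein, had 3.02, 3.67, 3.78 and 3.21 CPM in Lactate_iBET, against 14.5, 8.79, 7.13 and 11.1 CPM in Lactate. S100A3 changed by log2 −1.39 ± 0.19 in 7 libraries (adjusted p = 0.0181, and 0.0543 with the block). With 8 libraries the log2 fold changes were −1.34 for ECM1, −1.28 for ADGRG1 and −1.61 for S100A3, and none was called (adjusted p = 0.0571, 0.148 and 0.0627).

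XDH and AOX1 encode molybdenum enzymes, the first the oxidoreductase that ends purine breakdown and the second an oxidase of aldehydes and heterocycles. XDH had 2.54, 2.42, 3.99 and 3.14 CPM in Lactate_iBET, against 4.06, 9.07, 8.09 and 6.99 CPM in Lactate. AOX1 had 2.54, 3.81, 4.75 and 3.89 CPM in Lactate_iBET, against 6.30, 9.89, 8.94 and 9.37 CPM in Lactate. In both, Lactate replicate 1 was the lowest Lactate library yet still above every Lactate_iBET library, for XDH by a narrow margin. The log2 fold changes in 7 libraries were −1.41 ± 0.20 for XDH (adjusted p = 0.0225, and 0.0584 with the block) and −1.33 ± 0.20 for AOX1 (adjusted p = 0.0237). With 8 libraries they were −1.25 for XDH and −1.23 for AOX1, neither called (adjusted p = 0.211 and 0.14).

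SPOCD1, known from piRNA-directed DNA methylation in the mouse male germ line, averaged 4.81 ± 0.76 CPM in Lactate_iBET and 12.2 ± 2.5 CPM in Lactate (SD, n = 4 each), a log2 fold change of −1.47 ± 0.16 in 7 libraries (adjusted p = 0.0102). SCAT8, a long noncoding RNA gene, averaged 5.07 ± 1.3 CPM in Lactate_iBET and 11.97 ± 1.2 CPM in Lactate, and changed by log2 −1.25 ± 0.20 (adjusted p = 0.0336, and 0.0543 with the block). With 8 libraries the log2 fold changes were −1.37 for SPOCD1 and −1.26 for SCAT8, neither called (adjusted p = 0.0627 and 0.0815). Of the 32 genes that fell, 29 had no overlap between the groups over all 8 libraries. The exceptions were CEMIP, TNFAIP3 and PLEKHG4 (adjusted p = 0.0237 in 7 libraries, and 0.0533 with the block). In CEMIP and TNFAIP3 Lactate replicate 1 lay inside the Lactate_iBET range. In PLEKHG4 it lay below every Lactate_iBET library, at 79.1 CPM against 79.5 to 98.4 CPM. Non-overlap downwards was found for 3.74% of all genes tested, and the 32 were chosen by the same contrast.

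**Figure D3:**
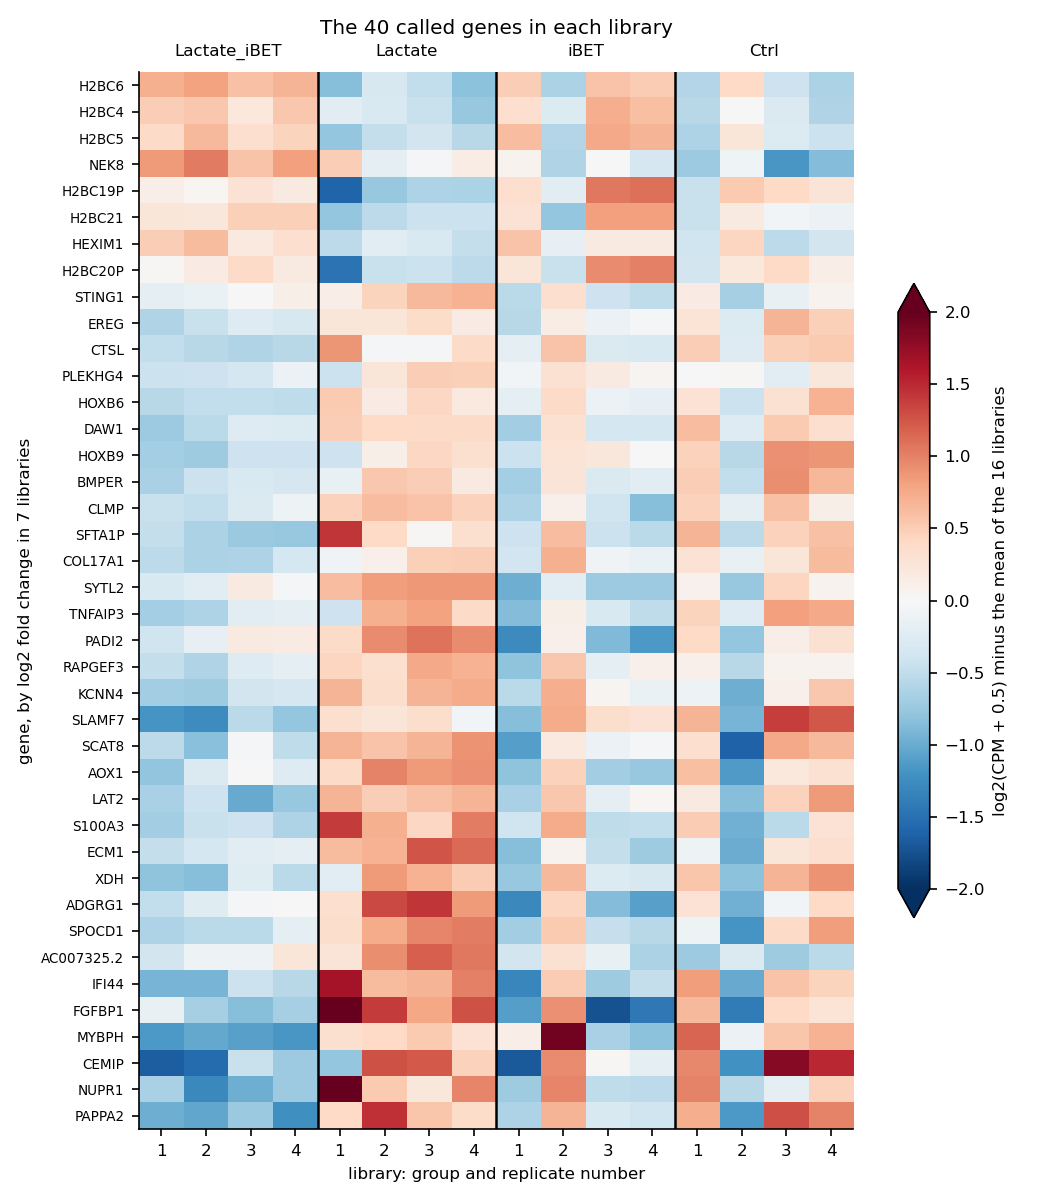
Rows are the 40 genes called in the 7 libraries, ordered by log2 fold change, and columns are the 16 libraries by group and replicate; colour is log2(CPM + 0.5) minus the gene's mean over the 16 libraries. Most Lactate_iBET cells are red for the 8 genes at the top and blue for the 32 below, and the libraries labelled iBET replicate 2 and Ctrl replicate 2 run opposite to their own groups in most rows.

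Genes of the interferon response had the lowest median of the lists with 10 or more genes tested. The median over 19 tested genes was log2 −0.59 with 7 libraries and −0.55 with 8, and 16 of the 19 were negative in the 7-library fit. IFI44 was the member that passed the test, 1 of 19, against 0.222% of all genes tested called lower. It had 1.31, 1.32, 2.06 and 1.84 CPM in Lactate_iBET, against 10.5, 4.88, 5.04 and 6.47 CPM in Lactate, and its log2 fold change was −1.74 ± 0.22 in 7 libraries (adjusted p = 0.0159) and −2.04 ± 0.30 in 8 (adjusted p = 0.0627). The antiviral GTPase gene MX1 had 14.98, 17.2, 18.2 and 18.4 CPM in Lactate_iBET, against 18.9, 26.4, 32.2 and 24.8 CPM in Lactate. The MX1 groups nearly touched and did not overlap, and its log2 fold change of −0.70 ± 0.13 missed the threshold (adjusted p = 0.0675). MX2 and OAS2, a second antiviral GTPase and a sensor of double-stranded RNA, had log2 fold changes of −1.11 and −1.59 at levels under 4 CPM (adjusted p = 0.126 and 0.133). With sample quality weights, which kept all 8 libraries, 6 of the 19 were called lower, where 1.46% of all genes were.

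Of the NF-kB and cytokine list, TNFAIP3 was called lower in 7 libraries, 1 of 19 tested, where 0.222% of all genes tested were. TNFAIP3, the ubiquitin-editing enzyme that restrains NF-kB, had 32.5, 34.1, 44.6 and 46.3 CPM in Lactate_iBET, against 38.9, 85.5, 91.5 and 67.9 CPM in Lactate. Lactate replicate 1 lay inside the Lactate_iBET range. TNFAIP3 changed by log2 −1.05 ± 0.15 in 7 libraries (adjusted p = 0.0225, and 0.0546 with the block) and −0.87 ± 0.25 in 8 (adjusted p = 0.317). The chemokine gene CXCL1 had log2 −0.76 ± 0.18 and ICAM1, an adhesion molecule, had log2 0.38, neither past the threshold (adjusted p = 0.141 and 0.181). The list median was log2 −0.22 with 7 libraries and −0.38 with 8.

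The metabolic lists that the series title points to held no called gene in either fit. PLIN2, which coats lipid droplets, had 51.3, 51.3, 76.1 and 66.2 CPM in Lactate_iBET, against 104, 94.6, 94.7 and 101 CPM in Lactate. The groups did not overlap, and the log2 fold change of −0.66 ± 0.14 in 7 libraries and −0.71 ± 0.15 in 8 did not pass the test (adjusted p = 0.114 and 0.211). PLIN2 was called lower by limma-voom with sample quality weights on 8 libraries (log2 −0.75, adjusted p = 0.0166), where 1.46% of all genes were. It was also called by edgeR with GC content and exon length offsets in 7 libraries (adjusted p = 0.0416), but not with the replicate block (0.14). PNPLA2, the triglyceride lipase of the same droplets, had 89.0, 123, 67.1 and 105 CPM in Lactate_iBET, against 34.1, 57.2, 63.0 and 54.2 CPM in Lactate. Its log2 fold change was 0.72 ± 0.18 in 7 libraries (adjusted p = 0.148, and 0.0204 with the same offsets). These were the 2 lowest p-values of the 20 tested droplet genes, with values in opposite directions.

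For ACLY, which makes cytosolic acetyl-CoA from citrate, the mean was 1609 ± 82.6 CPM in Lactate_iBET and 1301 ± 390 CPM in Lactate (SD, n = 4 each). Its log2 fold change was 0.13 ± 0.12 in 7 libraries (adjusted p = 0.762). The lactate dehydrogenase gene LDHA averaged 1810 ± 98.6 CPM in Lactate_iBET and 1538 ± 184 CPM in Lactate, and SLC16A3, a lactate exporter, averaged 314 ± 75.2 CPM in Lactate_iBET and 288 ± 61.8 CPM in Lactate. In 7 libraries the log2 fold change was 0.16 ± 0.09 for LDHA and 0.01 ± 0.17 for SLC16A3 (adjusted p = 0.58 and 0.994). LDHB had 74.9, 69.7, 70.4 and 70.04 CPM in Lactate_iBET, against 310, 58.5, 51.9 and 110 CPM in Lactate. Lactate replicate 1 held by far the highest LDHB level, and its log2 fold change was −0.04 without that library and −0.92 with it (adjusted p = 0.97 and 0.539).

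In the oxidative stress list, 3 of 20 tested genes had no overlap between the groups upwards in 8 libraries, against 3.9% of all genes, and 0 were called. Among these 3, PGD, of the pentose phosphate pathway, had a log2 fold change of 0.38 ± 0.09 and TXNRD1, a thioredoxin reductase, of 0.41 ± 0.11 (adjusted p = 0.141 and 0.176 in 7 libraries). Of the 15 mitochondrially encoded transcripts, 15 had positive fold changes with a median of log2 0.43, and none was called. They made up 4.66, 4.38, 3.40 and 3.55% of counts in the Lactate_iBET libraries, against 2.75, 3.71, 3.23 and 2.88% in the Lactate libraries. Replicates 1 and 2 of Lactate_iBET held the highest shares and the groups overlapped (two-sided exact permutation test, p = 0.0857, where 0.0286 is the smallest p possible).

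Classical growth genes of the BET literature did not pass the test. MYC, the transcription factor that BET inhibitors lower in many blood cancers, had 75.1, 82.1, 83.6 and 92.8 CPM in Lactate_iBET, against 68.8, 68.6, 82.3 and 87.2 CPM in Lactate. The groups overlapped, and the log2 fold change was 0.07 ± 0.11 in 7 libraries (adjusted p = 0.879). FOSL1, an AP-1 subunit, averaged 77.2 ± 10.8 CPM in Lactate_iBET and 80.6 ± 28.7 CPM in Lactate (log2 −0.28 ± 0.14 in 7 libraries, adjusted p = 0.481). The list of genes reported to fall under BET inhibition had 0 of 11 called and a median of log2 −0.13. Of 30 mitosis genes 25 had negative values, with a median of −0.12 and 0 called. The BET family gene BRD3 averaged 75.0 ± 9.4 CPM in Lactate_iBET and 74.7 ± 16.98 CPM in Lactate. BRD2 could not be tested, since its identifier held at most 3 counts in any library.

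**Figure D4:**
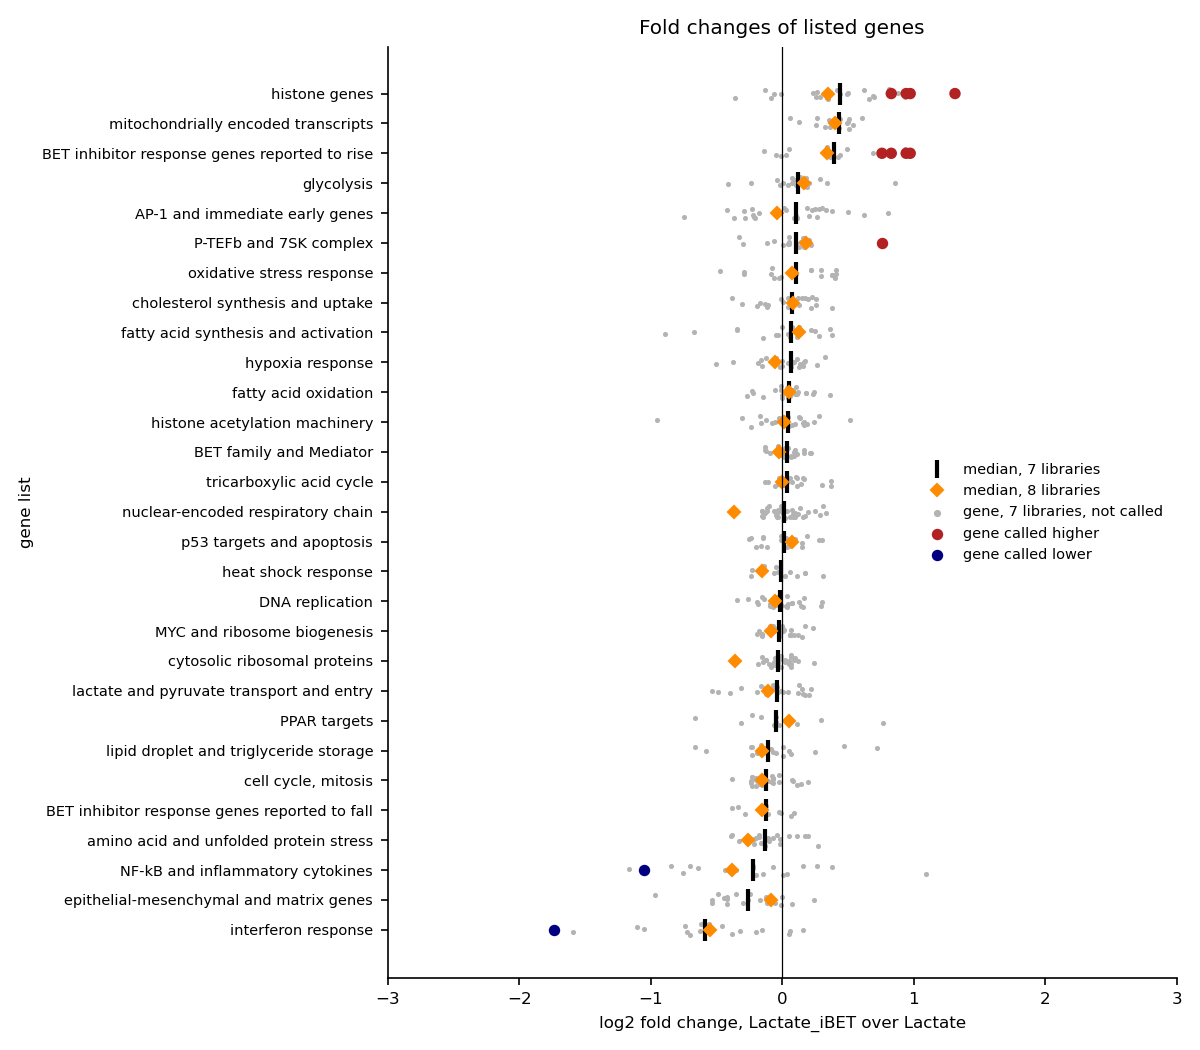
Each row is a gene list with 10 or more genes tested, and the x axis is the log2 fold change of Lactate_iBET over Lactate; points are genes in the 7-library fit (red called higher, blue called lower), black ticks their medians and orange diamonds the medians with 8 libraries. The histone list is highest (median 0.44) and the interferon list lowest (−0.59), and the ribosomal protein and respiratory chain diamonds lie apart from their ticks.

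Some list values rested on Lactate replicate 1. The median of 32 ribosomal protein genes was log2 −0.36 with 8 libraries and −0.03 with 7, and that of 34 nuclear-encoded respiratory chain genes was −0.36 and 0.01. Fold changes across genes had a Spearman correlation with exon length of 0.247 with 8 libraries and 0.039 with 7, a description over genes of the same libraries. Within single libraries, the deviation of each gene from its mean over the libraries was correlated with exon length at −0.153 to 0.063 across the 4 Lactate_iBET libraries. The 4 Lactate libraries gave −0.41, 0.242, 0.089 and −0.437 in replicate order. With GC content the correlations were 0.268, 0.41, 0.068 and 0.46 in Lactate_iBET and −0.012, 0.154, 0.339 and 0.323 in Lactate, so both groups spread widely. The part of this spread in the gene results was not tested. With offsets for GC content and exon length, all 32 lower and all 8 higher genes stayed called in 7 libraries, among 106 calls. These genes were chosen in the same libraries, where fold changes had correlations of only 0.026 with GC content and 0.039 with exon length. Their staying called therefore cannot show how much of the results this spread carries.

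The same genes were read in the cells without lactate, whose 8 libraries took no part in choosing them. In those cells HEXIM1 had 149, 89.6, 113 and 114 CPM in iBET and 75.7, 135, 70.04 and 77.4 CPM in Ctrl. The library labelled iBET replicate 2 was low and the library labelled Ctrl replicate 2 was high, each against its label, so values are given with and without this pair. For the 32 genes that fell with lactate, the library labelled iBET replicate 2 was the highest of its group for all 32, and the library labelled Ctrl replicate 2 was the lowest of its group for 30. The pair was set aside because HEXIM1 and these same genes ran against its labels, so counts without it are conditioned on the outcome and only describe the remaining libraries. With all 8 libraries, 27 of 31 measured genes were negative, with a median of log2 −0.47, and 0 were called, where 52.2% of all genes were negative and 0.0286% were called lower. Without the pair labelled replicate 2, 30 of 31 were negative, the median was −1.05 and 22 were called lower, where 1.55% of all genes were.

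Of the 8 genes that rose with lactate, 8 were positive in cells without lactate, with a median of log2 0.52, and 0 were called, where 3.52% of all genes were called higher. Without the pair labelled replicate 2 the median was 0.87 and 6 were called, where 3.41% of all genes were called higher. H2BC6, for example, had 9.20, 3.96, 9.80 and 9.33 CPM in iBET and 4.13, 8.66, 4.67 and 3.97 CPM in Ctrl. FGFBP1 had 8.92, 37.5, 5.53 and 6.97 CPM in iBET and 31.4, 7.14, 26.2 and 23.8 CPM in Ctrl. In both genes the libraries labelled replicate 2 lay on the side of the opposite group. Without them the log2 fold change in cells without lactate was 1.16 ± 0.14 for H2BC6 and −1.92 ± 0.19 for FGFBP1 (adjusted p = 0.0212 and 0.0149), beside 1.31 and −1.77 with lactate. Other called genes changed less in cells without lactate. Without the pair PLEKHG4 had log2 0.06 ± 0.11 and KCNN4 −0.39 ± 0.20 (adjusted p = 0.793 and 0.278), beside −0.74 and −1.15 with lactate.

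The difference between the I-BET762 responses with and without lactate was tested as an interaction over all 16 libraries. It called 0 of 14690 genes by edgeR and 0 by DESeq2, and 894 genes (6.09%) had an unadjusted p under 0.05. Without the pair labelled replicate 2 it also called 0, with 526 genes (3.53%) at an unadjusted p under 0.05 and a smallest adjusted p of 0.33. Of the 32 genes that fell with lactate, 10 had an unadjusted interaction p under 0.05 with 16 libraries and 5 without the pair. Of the 8 that rose, 0 did in either. These genes were chosen by the contrast with lactate, which is part of the interaction, so the counts are no independent evidence of a difference. LAT2 had an interaction of log2 −1.07 ± 0.41 with 16 libraries (adjusted p = 0.7), and −0.57 without the pair. HEXIM1 had 0.43 ± 0.27 with 16 libraries (adjusted p = 0.7) and 0.06 without the pair.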

How the data were processed

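PolyA RNA of DU145 cells was sequenced as single-end reads of 75 bases from 800 ng of total RNA with a directional kit, per the labels' protocols. STAR 2.6.1c, DESeq and GRCh38.p12 are named in the submitters' processing notes; how reads were assigned to genes, and with which strand option and gene models, is not stated there, so antisense and overlapping genes are uncertain. For all 16 libraries 1 table was deposited, with whole-number counts by Ensembl identifier. Symbols and positions came from GENCODE 29 for 58735 of 64792 identifiers.

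Genes were kept by filterByExpr (minimum count 10, minimum total 15), scaled by TMM and tested two-sided with edgeR 4.0.16 quasi-likelihood (R 4.3.3) on the 8 or 7 libraries alone; calls are Benjamini-Hochberg adjusted p under 0.05 over all genes tested. SE is the log2 fold change divided by the square root of F. CPM used TMM-scaled totals of all 16 libraries. DESeq2 1.42.0 and limma 3.58.1 were alternatives. The edgeR fits were also run on simulated counts with known changes. Those counts held no outlying library, no replicate pairing and no trend with GC content or exon length, so they cannot show how these features affect the calls. Named genes were all calls of the 8-library fit, the 10 largest rises and falls called in 7 libraries with at least 5 CPM and no overlap, a set list, and up to 4 genes of smallest p per list. Others named (PLEKHG4, PAPPA2, NUPR1 and those in the closing section) were chosen after their values were seen. The members and lists were chosen with earlier results of these data known.

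No pair of the 8 libraries agreed within sampling noise (smallest chi-square per degree of freedom 4.068). Same-numbered libraries deviated together from their group means (correlations 0.104 to 0.386, all above 0.1, and −0.327 to 0.234 for other pairs). The same-numbered Lactate library correlated best for 3 of the 4 Lactate_iBET libraries. Lactate_iBET replicate 1 correlated at 0.104 with Lactate replicate 1 and at 0.234 with Lactate replicate 2. The numbers, which come from the labels, were taken as a possible pairing. The main fits held no block, so their fold changes, SE, p-values and counts of calls leave this pairing out. Blocked values are printed where they change a call.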

Additional observations from a re-analysis of the deposited data

Results flagged for a closer look

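A library far from the other 3 of its group was found for 5 of 112 groups of 4 values examined. The groups share the same libraries and include genes called for differences large against their spread. The share that chance gives is therefore not known for them. SPOCD1 stood at 5.94 CPM in Lactate_iBET replicate 4, against 4.26 to 4.54 CPM in the others. H2BC4 stood at 14.2 CPM in Lactate_iBET replicate 3, against 17.5 to 18.02 CPM. H2BC20P stood at 14.02 CPM in Lactate replicate 1, against 27.7 to 29.4 CPM. LDHB stood at 74.9 CPM in Lactate_iBET replicate 1, against 69.7 to 70.4 CPM, a narrow range. PAPPA2, which cleaves insulin-like growth factor binding proteins, stood at 6.25 CPM in Lactate replicate 2, against 2.68 to 3.11 CPM.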

How the results depend on the processing

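The number of called genes depended on the libraries and the test. With 8 libraries, against 2 calls, there were 6 with RLE size factors, 1 with total counts alone, 29 with no filter on low counts, 0 with a mean of at least 5 CPM, 183 with DESeq2, 262 with limma-voom and sample quality weights, 0 in the model of all 16 libraries, 13 with GC content and exon length offsets, 0 with the replicate block, 4 with the block and these offsets together, and 124 with both Lactate 1 and Lactate 4 left out (chosen after seeing the data). Leaving out each replicate in turn gave 0 to 40 calls: 40 without Lactate replicate 1 and 0 without any other, with 793 to 2355 genes at an unadjusted p under 0.05. Limma-voom without weights gave 2 calls with 8 libraries, the number of the main fit. With 7 libraries, against 40 calls, there were 43 with RLE size factors, 39 with limma-voom, 429 with no filter and 248 with DESeq2. The GC content and exon length offsets gave 106 and the replicate block 24. Of 2 settings chosen after seeing the data, quality weights gave 951 and a model of 15 libraries 0. Leaving out a further replicate gave 0 to 124: 124 without Lactate 4, 49 without Lactate 2, 36 without Lactate_iBET 3, 5 without Lactate_iBET 4, 1 without Lactate 3 or Lactate_iBET 1, and 0 without Lactate_iBET 2. The interaction gave 0 in every setting run, the replicate block included, and the block changed no call there. Of the 40 genes, 21 lost their call under the block: 13 have their blocked value beside their result, PLEKHG4 among them, and the other 8 were SLAMF7, DAW1, BMPER, COL17A1, SYTL2, CLMP, RAPGEF3 and AC007325.2 (adjusted p = 0.0741, 0.0848, 0.1, 0.0719, 0.0705, 0.0912, 0.0705 and 0.115); 5 genes outside the 40 were called with it. The cause of these differences was not tested. The 40 genes kept their direction in all 15 alternatives of the 7-library fit, and 18 were called in at least 10 of them. Over the 40 genes and 15 alternatives the adjusted p reached 0.386. The genes were chosen by this contrast and the alternatives reuse the same libraries, so an unchanged direction is no independent evidence. No named gene or list reversed as a called value. Counts of a few CPM limit genes such as MYBPH and OAS2.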

Other observations

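These genes were singled out after their values were seen and carry no test beyond the one over all genes. The HOXB genes, a cluster of homeobox transcription factors on chromosome 17, lay lower with I-BET762 in lactate-treated cells in all 8 members tested. Over all genes tested, 47% were negative in 7 libraries and 52.7% in 8. The HOXB median was log2 −0.71 in 7 libraries and −0.83 in 8. In 7 libraries 2 of the 8 were called, where 0.222% of all genes tested were called lower. HOXB9 had 27.2, 26.7, 32.8 and 32.8 CPM in Lactate_iBET and 32.9, 47.7, 58.8 and 55.3 CPM in Lactate, and it fell by log2 0.85 ± 0.12 in 7 libraries (adjusted p = 0.0219), with −0.73 in 8 (adjusted p = 0.255). HOXB6 had 11.6, 12.1, 12.1 and 11.95 CPM in Lactate_iBET and 25.1, 19.4, 23.0 and 19.8 CPM in Lactate (log2 −0.80 ± 0.12, adjusted p = 0.025 in 7 libraries, 0.0741 with the replicate block and 0.0632 with 8 libraries). For 6 of the 8 members the groups did not overlap over 8 libraries, where 3.74% of all genes lay lower without overlap. HOXB7 had 32.0 to 35.3 CPM in Lactate_iBET, and its Lactate libraries held 173, 41.2, 44.3 and 68.4 CPM, with Lactate replicate 1 far above the rest.

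Of 6 ligands of the EGF receptor family tested, EREG, AREG and BTC lay lower with no overlap between the groups in 8 libraries, against 3.74% of all genes, and EGF, TGFA and HBEGF overlapped. EREG had 200, 222, 253 and 243 CPM in Lactate_iBET and 360, 360, 393 and 339 CPM in Lactate (log2 −0.67 ± 0.11, adjusted p = 0.033 in 7 libraries, 0.0741 with the block and 0.104 with 8 libraries). AREG had a log2 fold change of −0.61 ± 0.16 and BTC of −0.56 ± 0.16, without passing the test (adjusted p = 0.163 and 0.193). EGF stood at log2 −0.66 ± 0.26 in 7 libraries (adjusted p = 0.389). STING1, the adaptor of the cytosolic DNA-sensing pathway, had 56.4, 59.0, 64.2 and 69.8 CPM in Lactate_iBET and 70.6, 87.9, 101 and 105 CPM in Lactate, and fell by log2 0.65 ± 0.11 in 7 libraries (adjusted p = 0.0408, 0.0741 with the block and 0.263 with 8 libraries). CTSL, a lysosomal protease, had 171, 165, 159 and 165 CPM in Lactate_iBET and 445, 235, 238 and 315 CPM in Lactate (log2 −0.67 ± 0.11, adjusted p = 0.0408, 0.072 with the block and 0.211 with 8 libraries).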
